A study of Mus musculus with 31 samples.

Results

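The 16 strains described here are BXD1, BXD2, BXD5, BXD9, BXD11, BXD12, BXD13, BXD14, BXD16, BXD18, BXD19, BXD21, BXD24, BXD29, BXD31 and BXD32, out of 31 BXD/TyJ mouse strains whose whole-brain RNA was measured on 2-colour arrays. They were chosen by principal-component scores of these same log ratios across all 31 arrays, among which they formed 1 group of arrays, so their likeness is a description and supports nothing, and no test was made on any value below. On each array the pooled RNA of 3 males of 1 strain, aged 8 weeks and labelled with Alexa Fluor 647, was set against whole-brain RNA of C57BL/6J males of the same age, labelled with Alexa Fluor 555. Dyes were not swapped. There was 1 array per strain, so a property of a strain and a property of its array cannot be told apart, and the number of arrays limits the precision. Values are log2 ratios of strain over C57BL/6J, a scale and direction taken from the channel order and the tool named for processing and not stated with the values.

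BXD strains are recombinant inbred lines bred from C57BL/6J and DBA/2J. Inbreeding has fixed almost every locus of a line for one of the parental alleles. A locus that strongly sets the level of a transcript therefore sorts the lines into those with one parental allele and those with the other, and neighbouring loci tend to be inherited together. The reference on every array was one of the parents, so a line that carries the C57BL/6J allele at a locus is compared there with its own allele.

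The arrays of the 16 strains gave values for 15096 genes, each the mean of its probes. Pairwise correlations of the log ratios between arrays ranged from 0.47 to 0.90 over 120 pairs, with a mean of 0.74. All arrays shared 1 reference and had been brought to 1 distribution of values. The sign of the log ratio was the same in all 16 strains for 4817 genes, positive for 2392 and negative for 2425. The values are ratios and give no level against which the labelled tissue could be checked. BXD5 and BXD32 stood apart from the rest. The SD over genes of the deviation from each gene's mean was 0.36 in BXD5 and 0.38 in BXD32, against 0.19 to 0.30 in the other strains. One or the other of them was the strain farthest from the median in 5466 genes, or 36.2%, where an even share for 2 of 16 strains is 12.5%. Several counts and values below are also given without them.

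After each gene's mean was subtracted, some pairs of strains deviated alike. The correlation of deviations over genes was 0.30 for BXD2 with BXD21, 0.30 for BXD13 with BXD14, 0.25 for BXD14 with BXD21 and 0.23 for BXD9 with BXD12. It was −0.41 for BXD11 with BXD29 and −0.37 for BXD5 with BXD19. The first 3 principal components of the deviations held 21.0%, 12.5% and 11.8% of the variance.

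**Figure D1:**
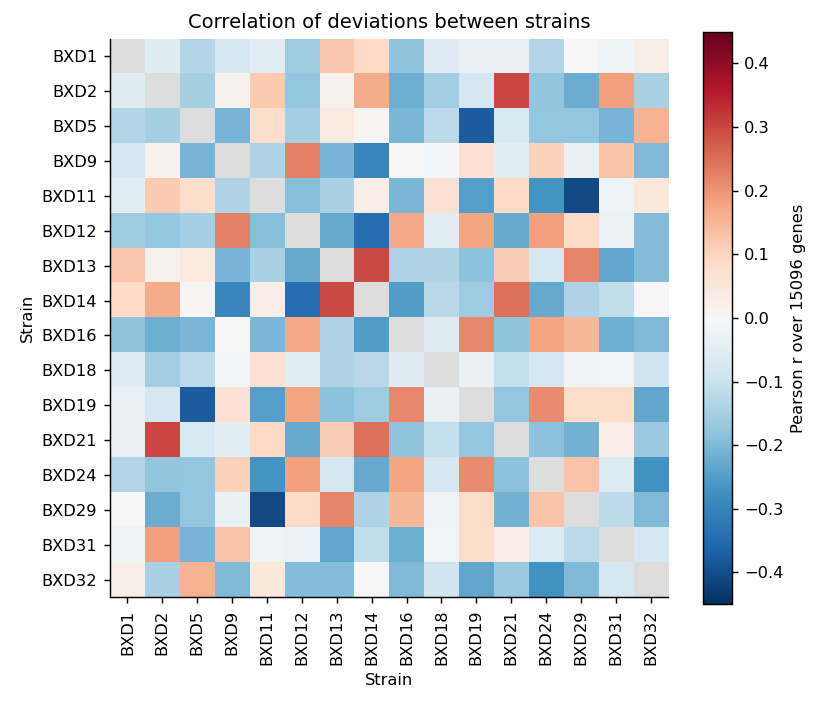
Pearson correlation, over 15096 genes, of the deviations of each pair of the 16 strains from the gene means; colour gives r and the diagonal is left grey. BXD2 with BXD21 and BXD13 with BXD14 are the most alike at 0.30, and BXD11 with BXD29 the least at −0.41.

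Most genes varied little between strains. The SD of a gene's log2 ratio over the 16 strains had a median of 0.20, with 0.10 at the 5th percentile, 0.47 at the 95th and 0.64 at the 99th. The array itself holds a yardstick, since 231 spots, in 4 blocks and at the last place of a run of 8 spots, carry Gapdh, the glycolytic enzyme often used as a constant transcript; 1 more Gapdh probe lies at another place and was not counted with them. Their SDs over the same strains had a median of 0.27 and a 95th percentile of 0.44. Of the 15096 genes, 951 (6.3%) had an SD above that 95th percentile and 4 had one above the most variable Gapdh spot, at 1.15, whereas 71.5% lay below the Gapdh median. Other probes at the last place of a run also varied more, with a median SD of 0.28 over 1951 probes against 0.20 over 14692 probes at the other places. Without BXD5 and BXD32 the median SD over genes was 0.18.

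**Figure D2:**
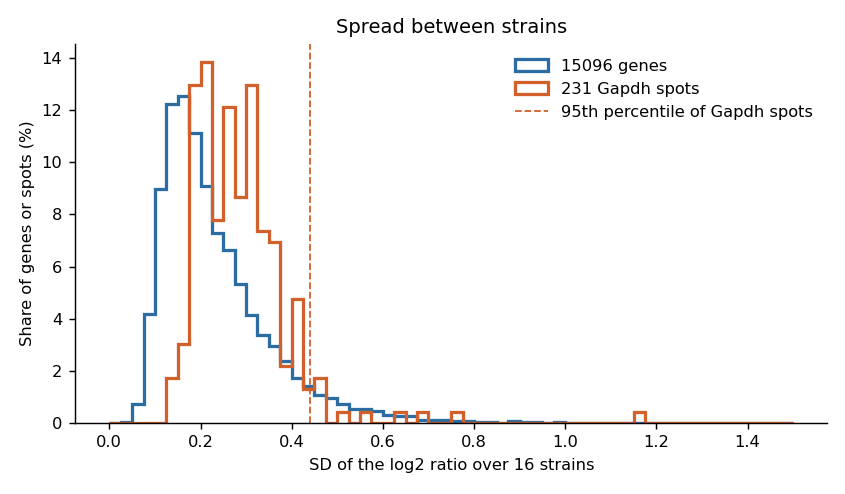
Share of genes and of Gapdh spots, in percent, by the SD of the log2 ratio over 16 strains; the dashed line marks the 95th percentile of the Gapdh spots, 0.44. The genes peak below the Gapdh spots and have a long tail to the right, in which 951 genes pass the line.

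The most variable genes were of several kinds, and in some of them 1 to 3 strains stood far from the rest. Cdk16, an X-linked cyclin-dependent kinase, had the largest SD, 1.29. Its log2 ratio was −3.27 in BXD14 and 3.61 in BXD24, 1.25 in BXD16, and between −0.02 and 0.35 in the other 13 strains. Rflna, which encodes a filamin-binding protein, had an SD of 1.25. It stood at 4.95 in BXD16, 2.09 in BXD12 and 1.26 in BXD19 and at no more than 0.61 elsewhere, and its SD was 0.55 without BXD16. Wnt10b, a secreted Wnt ligand, was at −3.01 in BXD1 and −2.88 in BXD32 and from −0.20 to 0.67 in all others. A930037H05Rik was at 1.88 in BXD32 and from −2.84 to −1.01 in the others, with an SD of 1.10, which was 0.48 without BXD32. Its probe lies at the last place of a run, the only such probe among the 15 most variable genes.

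Other members of the 15 were spread over many strains. Bid, a pro-apoptotic member of the Bcl-2 family, ranged from −3.08 in BXD9 to 0.67 in BXD31 around a median of −0.53, with an SD of 1.26. Rab3gap1, a subunit of the GTPase-activating complex for Rab3, ranged from −1.83 in BXD14 to 2.00 in BXD12, with an SD of 1.18. Acta1, the skeletal muscle actin, ranged from −1.21 in BXD14 to 2.32 in BXD12 and had an SD of 1.00. In both of these genes the lowest strain was BXD14 and the highest BXD12. Septin11, a cytoskeletal GTPase, ranged from −2.77 in BXD14 to 0.41 in BXD16. Tgm3, a transglutaminase, ranged from −1.34 in BXD14 to 2.84 in BXD32, and its SD was 0.68 without BXD32. Itch, a ubiquitin ligase, ranged from −2.21 in BXD32 to 0.95 in BXD5, with an SD of 0.92 that was 0.76 without these strains. Sprr2g, Cideb, 4930528H21Rik, 4933416E14Rik and C1qa completed the 15, with SDs from 0.94 to 0.99. Of these 15 genes, 11 were also among the 15 most variable without BXD5 and BXD32.

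The next question was whether single genes sorted the strains into 2 parts, as a locus of large effect would. For each gene the strains were ordered by value and divided at the place where the most variance lay between the parts, with at least 4 strains on each side. A gene was called divided where that share reached 0.9. The median gene had a share of 66.8%, the highest was 94.0%, and 15 genes (0.0994%) were called. Leaving out any 1 strain, with the smallest part kept at 4 strains, gave a count of 17 to 24. It was 23 without BXD12, BXD18 or BXD32 and 24 without BXD21. At a share of 0.85 there were 169 (1.12%). The first genes outside the threshold were Asgr2 at 89.8%, Fancd2 and Tbx4, both at 89.7%, and the last inside it were Ppp1r42 at 90.0% and Arc at 90.1%. The highest share belonged to Gnrh1, which encodes gonadotropin-releasing hormone, but its values span a narrow range. It lay between 0.05 and 0.16 in 11 strains and between 0.35 and 0.44 in BXD5, BXD13, BXD21, BXD24 and BXD29, with an SD of 0.15. With Gnrh1, 5 of the 15 genes had an SD below the median of all genes.

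Among the 10 called genes with an SD at or above the median, 4930522O17Rik on chromosome 4 had the highest share, 93.2%. It lay between −0.48 and 0.02 in BXD1, BXD2, BXD5, BXD11, BXD13, BXD14 and BXD21, and between 0.72 and 1.20 in the other 9 strains. Stx11, a SNARE protein of membrane fusion encoded on chromosome 10, divided them almost the same way. It lay between −0.18 and 0.23 in 7 strains and between 0.80 and 1.57 in 9. The same was true of Ppp1r42 on chromosome 1, with 9 strains from −0.46 to 0.01 and 7 from 0.44 to 0.70, and, just below the threshold, of Asgr2 on chromosome 11, a subunit of the asialoglycoprotein receptor, with 8 strains from −0.16 to 0.14 and 8 from 0.44 to 0.86. Any pair of these 4 genes put 14 or 15 of the 16 strains on matching sides, although they lie on 4 different chromosomes.

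C1qa, a chain of the complement protein C1q made in the brain by microglia, had the widest gap of the called genes. It was −2.53 in BXD12, −2.41 in BXD24, −2.10 in BXD9, −1.88 in BXD5 and −1.54 in BXD31, and between −0.56 and 0.24 in the other 11 strains. The genes of the other chains of the same protein, C1qb and C1qc, also on chromosome 4, did not share this division. C1qb ranged from −0.15 to 0.59 and C1qc from −0.32 to 0.45, and in both BXD11 was the highest strain. Over the 16 strains C1qa correlated with C1qb at r = 0.03 (rho = 0.24; r = −0.01 without the 2 strains farthest in C1qa) and with C1qc at r = −0.02 (rho = −0.21; −0.09). C1qb and C1qc correlated with each other at r = 0.57 (rho = 0.38; 0.21 without the 2 farthest strains). The genes most like C1qa over the 16 strains were Mrpl57 on chromosome 14 at r = 0.89, Gjc1 on chromosome 11 at 0.88 and Agpat4 on chromosome 17 at 0.83. All of these correlations share the arrays, the reference and the normalisation.

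Sgf29 on chromosome 7, called at 90.4% with an SD below the median, had the upper run of Ppp1r42 without BXD9. The other called genes with an SD at or above the median took other sets of strains, some of them overlapping. Rhoay-ps1 with Stx11, Jsrp1 with 4930522O17Rik and Them6 with Asgr2 each put 13 of the 16 strains on matching sides, where parts may be swapped. Rhoay-ps1, annotated on chromosome Y, lay between −2.31 and −1.22 in BXD2, BXD13, BXD14, BXD21, BXD24 and BXD32, and between −0.47 and 0.11 in the other 10 strains. Arc, an immediate early gene of synaptic plasticity on chromosome 15, lay between 0.33 and 0.48 in BXD5, BXD11, BXD13, BXD16 and BXD29, and between 0.74 and 1.07 in the other 11. Fos, another immediate early gene, did not follow it: r between Arc and Fos was −0.51 (rho = −0.44) and −0.02 without the 2 strains farthest in Arc. Cfap126, a gene of motile cilia, lay between 0.84 and 1.02 in 6 strains and between 0.20 and 0.55 in 10. Pes1, a ribosome assembly factor, lay between −0.72 and −0.36 in BXD11, BXD16, BXD18 and BXD32, and between −1.48 and −1.19 in the other 12. Jsrp1, a protein of the muscle sarcoplasmic reticulum, had an upper run of 4 strains from 0.62 to 0.82, and Them6 one of 5 strains from 0.52 to 0.60. The upper runs of Jsrp1, Them6 and Pes1 each hold BXD5 or BXD32 or both, and without these strains fewer than 4 strains were left in them, which the rule does not allow. Their shares were then 72.3%, 71.0% and 72.8%. In all, 33 genes were called without BXD5 and BXD32, of which 8 were among the 15.

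**Figure D3:**
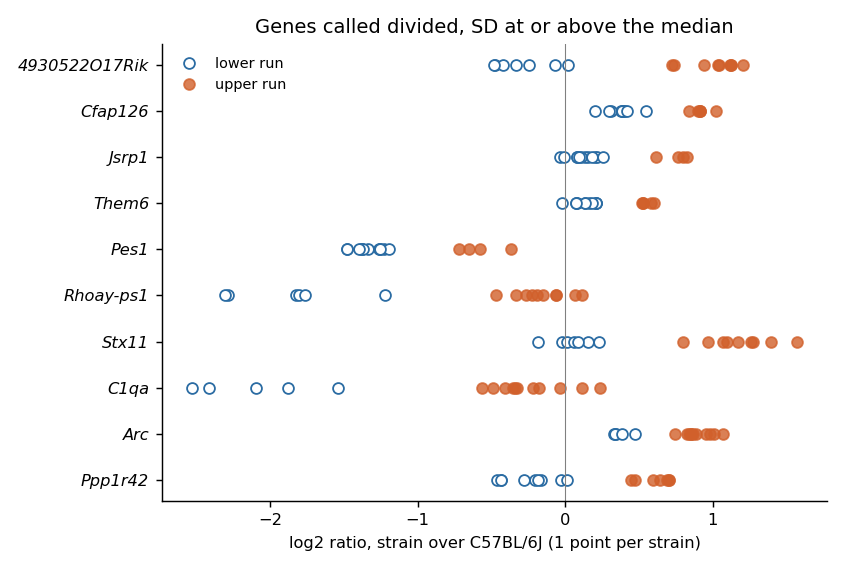
Log2 ratio of strain over C57BL/6J, 1 point per strain, for the 10 genes called divided with an SD at or above the median; open and filled points are the lower and the upper run. The gap is widest in C1qa, between −1.54 and −0.56.

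Fancd2, of DNA crosslink repair, Fzd5, a Wnt receptor, Tipin, of the replication fork, and St8sia6, a sialyltransferase, lay just below the threshold with shares of 89.2% to 89.7%. Fzd5 held 4 strains, BXD9, BXD13, BXD14 and BXD21, between −0.55 and −0.49 and the other 12 between −0.20 and 0.08. Tipin held BXD9, BXD12, BXD16, BXD18 and BXD24 between 1.02 and 1.34 and the rest between 0.09 and 0.58.

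The sides that strains took in divided genes followed the likeness of whole arrays. Over the 169 genes at 0.85, BXD14 and BXD21 were on the same side in 75.1% and BXD2 and BXD21 in 74.6%, whereas BXD11 and BXD29 were so in 31.4%. Over the 120 pairs of strains, the share of genes on the same side correlated with the correlation of deviations at r = 0.89 (rho = 0.88). Each strain enters 15 of these pairs, and the divided genes are part of both measures. Neighbouring divided genes did not stand out by this measure. At 0.85, pairs within 10 places on a chromosome put a mean of 63.4% of the strains on matching sides, over 20 pairs. Pairs farther apart on 1 chromosome reached 61.9%, over 670 pairs, and pairs on different chromosomes 62.1%, over 12351. At 0.9 there was 1 such neighbouring pair, at 62.5%, against 62.1% over 100 pairs on different chromosomes.

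Genes with a known difference between the parents were looked at by name. Of 19 listed genes 18 were measured, with a median SD of 0.18. Glo1, the glyoxalase whose locus is duplicated in DBA/2J and not in C57BL/6J, was −0.28 in BXD18 and between 0.21 and 0.67 in the other 15 strains. Alad, an enzyme of haem synthesis, ranged from −0.19 in BXD21 to 0.42 in BXD31. Nnt, a mitochondrial transhydrogenase of which C57BL/6J lacks several exons, ranged from −0.16 to 0.21; the position of its probe in the gene was not analysed here, and a probe outside the missing part checks nothing. Gabra2, a GABA-A receptor subunit, was below 0 in all 16 strains, from −1.29 to −0.48. These are means of 2 probes, 1 of them at the last place of a run, which correlated at r = −0.16 (rho = −0.27). H2-Ea, an MHC class II chain that C57BL/6J does not express, was also below 0 in all strains, from −0.62 to −0.14. Hc, which encodes complement C5 and is defective in DBA/2J, ranged from −1.25 to −0.14, and Kcnj9, a potassium channel subunit, from −0.82 to −0.06. The share for 2 parts in the 18 measured genes ran from 49.7% in Glo1 to 77.7% in Nnt, and 0 of the 18 were called divided, where 0.0994% of all genes were; at that share a count of 0 is no result about the list.

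A second probe of the same gene gives a direct view of how far a gene's pattern over strains is repeatable on the array. For the 1048 genes with several probes, the first 2 probes by number correlated over the 16 strains with a median r of 0.022 and a median rho of 0.035. The jackknife SE of the median r over arrays was 0.020, and it was 0.0089 without BXD32. Probes of different genes had a median r of 0.0015. The correlation was above 0.5 in 73 genes (6.97%) and below −0.5 in 40 (3.82%), against 5.61% and 5.16% of pairs of probes of different genes. It was positive in 546 genes and negative in 502. Summed over genes, the covariance of the 2 probes was 2.84% of the summed products of their SDs, a pooled form of the same correlation. In the 274 genes whose probes both had an SD at or above the median, the median r was 0.010 and 7.66% exceeded 0.5. In the 62 genes whose probes both had an SD in the highest quartile, 11.3% exceeded 0.5. In the 24 genes whose probes carry the same accession, the median r was 0.15 and the mean 0.049, with 0 above 0.5 and 2 below −0.5.

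The probes that did correlate included genes of several kinds. For Muc2, a gel-forming mucin, r was 0.88 (rho = 0.68), and 0.63 without BXD5 and BXD32. One probe ranged from −1.37 in BXD5 to 1.09 in BXD32 and the other from −0.95 to 0.33 in the same strains. For Srsf2, a splicing factor, r was 0.82 (rho = 0.77), with BXD18 highest on both probes at 1.35 and 1.02, and 0.53 without the 2 strains farthest on the first probe. Psg23, a pregnancy-specific glycoprotein, gave 0.78 (rho = 0.80; 0.71 without the 2 farthest strains). Chmp7, of the ESCRT-III machinery, gave 0.72 (rho = 0.85; 0.78), and Samsn1, an adaptor protein of lymphocytes, 0.74 (rho = 0.72; 0.70). In Dst, a cytoskeletal linker, r was 0.75 and rho 0.36, and BXD5 was lowest on both probes, at −0.56 and −1.52; r was 0.31 without BXD5 and BXD32. Rpl35a, a ribosomal protein, gave 0.75 and Ncam1, a neural cell adhesion molecule, 0.72, which were 0.39 and 0.42 without those strains. Dmac2 and Ttpal completed the 10 highest at 0.77 and 0.72. The lowest correlations were −0.80 for the probes of Igh, −0.74 for Vps36, of the ESCRT-II complex, −0.71 for Plxdc2, −0.70 for Chd3 and −0.69 for Trav6d-6.

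At most of the distances looked at, spots on the array shared more variation than probes of 1 gene. Spots next to each other in probe number had a mean r of 0.12 over the 16 strains, and spots 24 apart one of 0.11. It was 0.086 at 48 apart and 0.040 at 240 apart, whereas spots 12 apart had 0.0030. The mean for 2 probes of 1 gene was 0.028. The 231 Gapdh spots correlated with each other at a mean of 0.19. What the position contributes to any single gene was not tested.

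Genes that lie next to each other on a chromosome were only slightly more alike than genes that do not. The mean r over the 16 strains was 0.0065 for 140345 pairs within 10 places of each other on a chromosome, leaving out pairs with 1 symbol stem, and 0.0026 for pairs on different chromosomes. The difference was 0.0039 with a jackknife SE of 0.00084 over arrays. A correlation above 0.5 was found in 5.79% of the near pairs and in 5.61% of pairs on different chromosomes. Adjacent genes had a mean r of 0.013, and the mean was 0.0053 at 6 to 10 places and 0.0042 at 51 to 100 places. Pairs with 1 symbol stem, which are mostly members of 1 gene family and whose probes may cross-hybridise, had a mean r of 0.047 within 10 places and 0.017 on different chromosomes. With the first principal component of the strains removed the difference was 0.00105, and with the first 3 removed it was 0.000681. Only 2.14% of the near pairs lay in 1 block of the array, and their mean r was 0.0051 against 0.0065 for the rest.

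By chromosome the mean r of near pairs ran from −0.037 on Y, over 102 pairs, and −0.0021 on chromosome 1 to 0.020 on chromosome 19. Adjacent genes on the same strand had a mean r of 0.023 over 4299 pairs, converging genes 0.0096 over 2442 and diverging genes 0.0076 over 2463. For the 522 diverging pairs with starts within 1000 bases the mean was 0.014 and the median −0.00502.

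**Figure D4:**
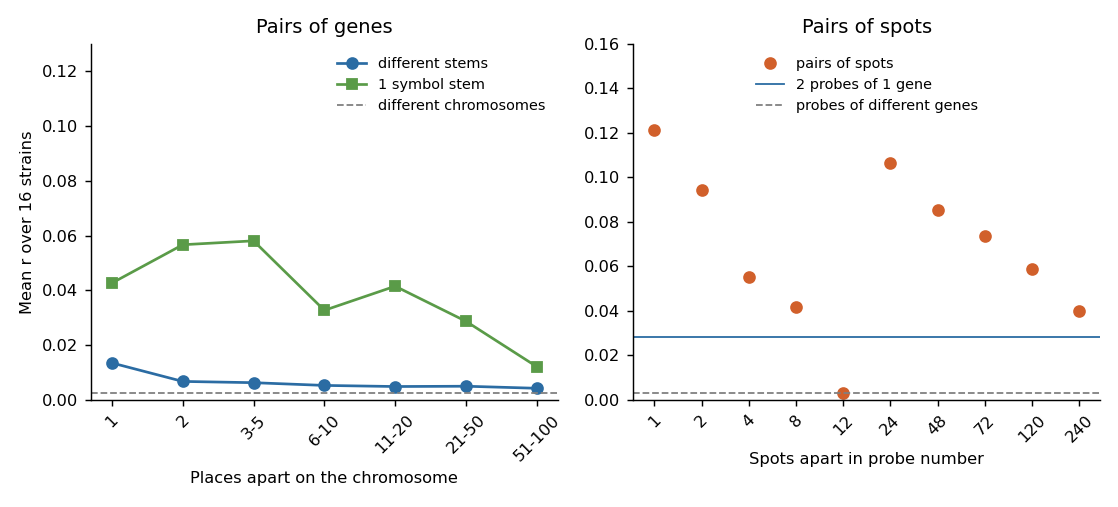
Left, mean r over 16 strains of pairs of genes by their distance on the chromosome, for pairs with different symbol stems and with 1 stem; the dashed line is the mean for different chromosomes, 0.0026. Right, mean r of pairs of spots by their distance in probe number, with the mean for 2 probes of 1 gene, 0.028, and for probes of different genes; adjacent spots reach 0.12.

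The most correlated neighbours came from 9 chromosomes. Fgf5, a growth factor, and 2310034O05Rik on chromosome 5 correlated at r = 0.93 (rho = 0.95; 0.89 without the 2 farthest strains), with both lowest in BXD32, at −0.11 and −0.47. Fmo2, a flavin monooxygenase, and the adjacent Mroh9 on chromosome 1 correlated at 0.93 (rho = 0.84; 0.88), both lowest in BXD5 and highest in BXD16. The value of Fmo2 is a mean of probes, and its first 2 probes correlated with each other at r = −0.51 (rho = −0.46). Nr1h3, the liver X receptor alpha, and F2, which encodes prothrombin, on chromosome 2 gave 0.91 (rho = 0.89; 0.86). Nr1h3 ranged from −1.66 in BXD11 to 0.62 in BXD32, and F2 from −1.18 in BXD11 to −0.26 in BXD16. Trip13 and Pdcd6 on chromosome 13 gave 0.90 and were both highest in BXD9, at 1.90 and 1.59. In Rufy3 and Slc4a4, a bicarbonate cotransporter, on chromosome 5 (r = 0.90), BXD5 was the lowest strain in both, at −0.84 and −1.72, and BXD29 the highest. Ube4b with Slc25a33, Cox4i2 with 2500004C02Rik, Ska2 with 1110028F11Rik, and Tmsb15a with Tceal1 gave 0.90 to 0.92. Csnk1g3 with Tex43 and B4galnt2 with Snf8 gave 0.89. Likewise 4930523O13Rik and Ccn3 on chromosome 15 gave 0.89, but rho was 0.47 and r was 0.45 without BXD5 and BXD32, and BXD32 stood at 2.12 and 1.70 in the pair.

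Among neighbours of 1 family, the olfactory receptor genes Olfr1508 and Olfr1507 correlated at 0.89, the placental prolactin-family genes Prl7a1 and Prl7a2 at 0.88, the sensory neuron receptor genes Mrgpra1 and Mrgpra4 at 0.88, Hba-x and Hba-a1 at 0.87, the mucins Muc6 and Muc2 at 0.86, and Olfr141 and Olfr73 at 0.86. Whether probes of 1 family hybridise to each other's transcripts was not tested.

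The globin genes are shown with their promoters because they are neighbours whose values varied together in these strains. Hba-x encodes the embryonic zeta chain and Hba-a1 the adult alpha chain of haemoglobin, and both are expressed in cells of the red lineage. The 250 bases before each start are given 5′ to 3′ from RefSeq, build GRCm38.p6, both on the plus strand, at chr11:32276350-32276599 and chr11:32283422-32283671. Capitals mark TGATAA, a form of the motif bound by GATA factors, searched on both strands.
Hba-x: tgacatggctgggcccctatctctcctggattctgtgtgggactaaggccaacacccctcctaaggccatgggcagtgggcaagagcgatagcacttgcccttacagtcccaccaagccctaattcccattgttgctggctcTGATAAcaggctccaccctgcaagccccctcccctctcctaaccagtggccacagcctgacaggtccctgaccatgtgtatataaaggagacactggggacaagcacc
Hba-a1: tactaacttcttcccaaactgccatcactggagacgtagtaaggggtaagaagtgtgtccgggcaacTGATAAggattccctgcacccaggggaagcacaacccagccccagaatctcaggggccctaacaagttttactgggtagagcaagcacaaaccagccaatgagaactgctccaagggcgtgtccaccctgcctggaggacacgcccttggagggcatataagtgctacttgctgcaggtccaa
The motif occurs 1 time in each, and in 7.94% of 32851 promoters of this length. A match is a description of the letters only. Hba-a1 was 1.54 in BXD11, 0.95 in BXD12 and 0.62 in BXD1, and between −0.22 and 0.40 in the other strains. Hba-x was 1.75 in BXD11 and 0.71 in BXD1, and between −0.28 and 0.54 in the others, with BXD12 at 0.43. The values of Hba-x are means of 2 probes, 1 of them at the last place of a run, which correlated at r = 0.44 (rho = 0.43). Over the 16 strains r between Hba-x and Hba-a1 was 0.87 and rho 0.70, and r was 0.77 without the 2 strains farthest in Hba-a1. Of 8 blood markers 5 were measured, and 0 of the 5 correlated positively with the mean of the rest. The mean correlation within that list was −0.095, and −0.015 without BXD11. Alas2, the erythroid enzyme of haem synthesis, had its highest value, 0.34, in BXD11, but Bpgm, an enzyme of red cell metabolism, had its lowest there, at −1.04. The part of residual blood in these values was not tested.

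Some pituitary hormone genes were high in a few strains, and the pituitary is an organ that may stay with a dissected brain in part. Of 10 listed pituitary markers 9 were measured, with a median SD of 0.24 and a mean correlation of 0.15. In all, 8 of the 9 correlated positively with the mean of the rest, Cga at only 0.085, whereas Ghrhr was at −0.22. Cga was highest in BXD1 and Lhb in BXD11, but Tshb was highest in BXD16, Fshb in BXD32, Pitx1 in BXD5 and Ghrhr in BXD2. The mean log2 ratio of the list ran from −0.12 in BXD18 to 0.36 in BXD11 and 0.40 in BXD1, with a median of −0.04. Gh, growth hormone, was 1.61 in BXD11 and 1.56 in BXD1, and between −0.41 and 0.27 in the other 14 strains. Pomc, the precursor of corticotropin, was highest in the same strains, at 0.33 and 0.13, and between −0.63 and −0.10 elsewhere. Gh and Pomc correlated at r = 0.85 (rho = 0.65), which was 0.39 without the 2 strains farthest in Gh. Prl, prolactin, was 1.53 in BXD1 and 1.47 in BXD16, and between 0.16 and 0.71 in the other strains, so that BXD11, at 0.50, was not raised with Gh. Its promoter is shown because the pituitary factor Pit-1 activates both Gh and Prl, which were both high in BXD1 and differed in BXD11 and BXD16. The 250 bases before the start are at chr13:27057320-27057569, plus strand, build GRCm38.p6 of RefSeq, with matches to TATNCAT, the core of the Pit-1 motif, on either strand in capitals.
Prl: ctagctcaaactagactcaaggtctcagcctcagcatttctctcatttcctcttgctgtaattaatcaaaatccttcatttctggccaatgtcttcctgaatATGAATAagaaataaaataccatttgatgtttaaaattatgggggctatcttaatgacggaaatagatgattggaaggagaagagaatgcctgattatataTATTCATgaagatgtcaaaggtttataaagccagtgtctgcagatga
There are 2 matches, and 7.92% of the promoters hold 1 or more. Gh also correlated with the blood markers Hba-a1 (r = 0.65, rho = 0.13) and Alas2 (r = 0.77, rho = 0.54), which were −0.26 and 0.28 without the 2 strains farthest in Gh. How much pituitary tissue each pool held was not tested.

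**Figure D5:**
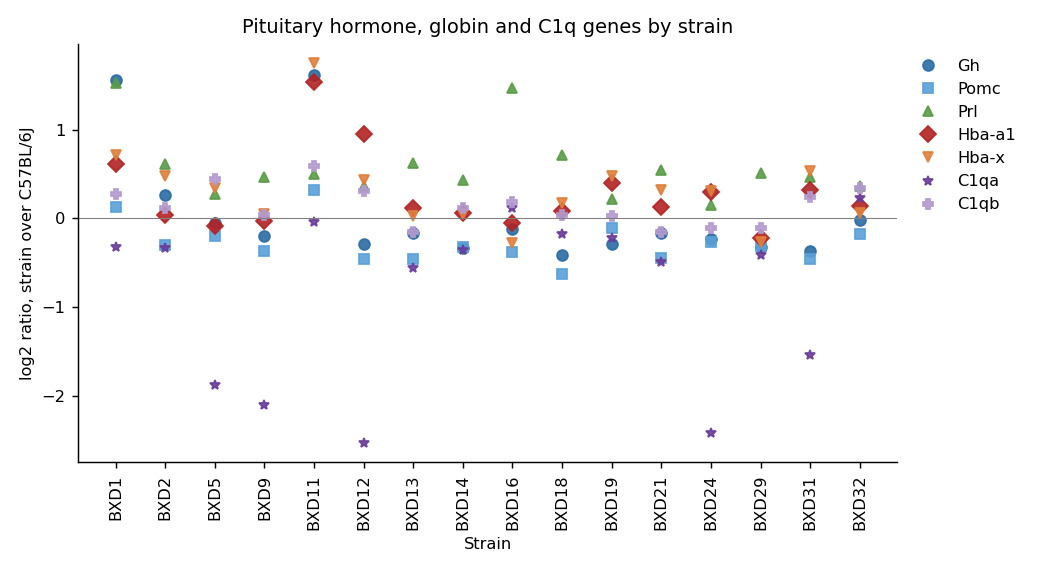
Log2 ratio of strain over C57BL/6J in each of the 16 strains for pituitary hormone genes, alpha globin genes and chains of C1q. Gh stands at 1.56 and 1.61 in BXD1 and BXD11, and C1qa lies at or below −1.54 in 5 strains while C1qb does not.

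Genes of large complexes varied together. Of 77 cytosolic ribosomal protein genes 62 were measured, with a median SD of 0.33 against 0.20 for all genes. Their mean pairwise correlation was 0.26 against 0.0025 for all genes, and 57 of the 62 correlated positively with the mean of the rest. The mean of the list ran from 0.08 in BXD16 and 0.10 in BXD24 to 0.60 in BXD5 and 0.73 in BXD32. Rpl19 followed the rest most closely, at r = 0.92, and ranged from 0.27 in BXD16 to 1.47 in BXD32. Rpl10 had the largest SD of the list, 0.54, and ranged from −0.04 in BXD24 to 1.94 in BXD32. Rpl41 went another way, at −0.15 with the rest, and was highest in BXD31 at 1.64. Rpl4 was lowest in its correlation with the rest, at −0.42. Without BXD5 and BXD32 the mean correlation was 0.20.

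Subunits of oxidative phosphorylation, the enzyme complexes of the mitochondrial respiratory chain and ATP synthase, had the same lowest and highest strains. Of 73 genes 66 were measured, with a median SD of 0.32 and a mean correlation of 0.18, and 56 correlated positively with the rest. The mean of the list ran from −0.0046 in BXD16 to 0.40 in BXD11 and 0.55 in BXD32. Cox7c, a subunit of cytochrome c oxidase, had an SD of 0.61, and was 1.79 in BXD12, 1.60 in BXD32 and 1.40 in BXD11, and lowest at −0.12 in BXD13. Its only probe lies at the last place of a run, where probes varied more. Atp5j2, of ATP synthase, was 1.87 in BXD11, 1.71 in BXD18 and 1.54 in BXD32, and lowest in BXD21 at 0.18. Uqcr11, of complex III, followed the rest most closely, at r = 0.96, and Cox8a least, at −0.58. The mean correlation was 0.13 without BXD5 and BXD32, and 0.056 with the first principal component removed, whereas that of the ribosomal list was 0.18 with that component removed. BXD32, the highest strain in both lists, is one of those that stand apart in the spread over all genes. RNA quality and the part of the array in this were not tested.

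With no component removed, markers of cell types correlated less within their lists than ribosomal protein or oxidative phosphorylation genes. The mean correlation was 0.14 for 11 astrocyte genes, 0.11 for 13 genes of oligodendrocytes and myelin, 0.097 for 11 endothelial genes, 0.082 for 11 hypothalamic peptides and 0.062 for 10 microglial genes. Without BXD32 the astrocyte value was 0.061, the oligodendrocyte value 0.045 and the hypothalamic value 0.046, and without BXD1 the microglial value was 0.032. Without both BXD5 and BXD32 the values were 0.097, 0.062, 0.12, 0.055 and 0.048 in the same order of lists. With the first principal component removed they were 0.15, 0.13, 0.12, 0.067 and 0.0070. The value for oxidative phosphorylation was then 0.056, below the first 4 of these, so the order of lists changed. With the first 3 components removed they were 0.085, 0.071, 0.017, 0.018 and 0.038, beside 0.050 for oxidative phosphorylation. In bulk tissue, fewer cells of a type and less RNA per cell cannot be told apart. Gja1, the astrocyte gap junction gene, had an SD of 0.68 and ranged from −2.30 in BXD5 and −1.88 in BXD18 to −0.04 in BXD14. Fgfr3, a growth factor receptor of astrocytes, was 2.07 in BXD11 and 0.64 in BXD18, and between −0.43 and 0.15 in the others. The correlation of Gja1 with Fgfr3 was −0.17 (rho = −0.10; −0.09 without the 2 farthest strains), and they followed the rest of the list little, at r = 0.09 and −0.02. In all, 9 of the 11 astrocyte genes correlated positively with the mean of the rest. Slc1a2, the main astrocyte glutamate transporter, did so at 0.78, Gfap, the astrocyte intermediate filament, at 0.67 and Aqp4, the water channel, at 0.54. These last 3 genes were all lowest in BXD32. Slc1a3 and Aldoc were also lowest there, but Gja1, S100b, Aldh1l1, Sox9, Glul and Fgfr3 were lowest in other strains. Glul correlated with the mean of the rest at −0.11. The value of Gfap is a mean of probes, and its first 2 probes correlated with each other at r = −0.18 (rho = −0.13). Mobp, of myelin, ranged from −0.12 in BXD32 to 1.08 in BXD1, and Cldn11, of myelin, from −0.58 in BXD32 to 1.17 in BXD11. Of the 13 genes of oligodendrocytes and myelin, 10 correlated positively with the mean of the rest. Olig1, Gjc3 and Mal did so negatively, at −0.46, −0.10 and −0.01. Mbp, Cnp, Gjc3, Olig2 and Sox10 were also lowest in BXD32, but Mog, Mag, Mal, Ugt8a, Olig1 and Gjb1 were lowest in other strains. Slc2a1, the glucose transporter of brain endothelium, was −1.90 in BXD32 and −1.36 in BXD5 and between −0.83 and 0.01 in the others. Its SD was 0.45, and 0.22 without these strains. Of the 11 endothelial genes 8 correlated positively with the mean of the rest, but Slc2a1 was at −0.08. Cldn5 was highest in BXD32, at 1.03, whereas Tek, Esam and Vwf were lowest there. Cdh5, Ly6c1 and Esam were highest in BXD5, Cdh5 at 0.94.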

How the data were processed

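Whole-brain RNA of 31 strains was hybridised on 2-colour arrays, 1 per strain; 16 arrays were used here, without replicate arrays. Per the labels, 20 ug of each RNA was labelled, and 2 ug of spike-in transcripts went with the reference. The deposited values are log ratios of 23040 spots, taken as log2 because the submitters' processing notes name R 2.0.0 and limma; for scale, centring, direction, background correction and filters the sources used here give nothing. Sorted, the values of all 31 columns were identical (median 0.01, SD 0.60), so the authors had quantile normalised them, which removes shifts of whole arrays. The platform annotation named 1 gene for 16874 probes. Probes of a gene were averaged. RefSeq (GRCm38.p6) gave the order of 14622 genes. Runs of 8 spots and 48 blocks of 480 were read from probe numbers.

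Python 3.11.15, numpy 2.4.6, pandas 2.3.3 and scipy 1.17.1 were used, and the procedures were tested on simulated data. Errors are jackknife SEs over the 16 arrays. Members and gene lists were chosen with earlier results of these data known. Named were the 15 largest SDs; the 15 largest shares for 2 parts among genes with an SD at or above the median; the 12 most correlated neighbouring pairs, and 6 of 1 stem; the 10 highest and 5 lowest probe correlations; the 2 most variable members of each list; the check genes; and the 3 genes most like a gene singled out. The 12 neighbouring pairs were taken from pairs of different stems whose genes both had an SD at or above the median. Other genes were chosen after their values were seen. Alternatives changed the measure of spread, the threshold, the probe, the distance, the components removed and the strains.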

Additional observations from a re-analysis of the deposited data

How the results depend on the processing

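The median SD of 0.20 was 0.16 as a scaled median absolute deviation, 0.18 with the first component removed and 0.18 without BXD5 and BXD32, a choice made after seeing the data. The mean correlation of arrays of 0.74 was 0.79 without them. The 15 divided genes became 169 at a share of 0.85 and 33 without BXD5 and BXD32, with the smallest part kept at 4 strains. The cause of the rise to 33 was not tested, and the count also rose without any 1 strain. The median probe correlation was 0.047 over all pairs of probes. The neighbour difference of 0.0039 was 0.011 for adjacent genes, 0.0051 within 5 places, 0.0052 with pairs of 1 stem kept, 0.00105 with the first component removed and 0.000681 with 3 removed. The neighbours' excess of matching sides, 0.38 percentage points from 1 pair, was 1.35 at a share of 0.85 and −5.81 without BXD5 and BXD32; with the first component removed no near pair was left. It has no settled direction.

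Leaving out each strain in turn gave ranges of 0.19 to 0.20 for the median SD, 0.74 to 0.77 for the likeness of arrays, 17 to 24 divided genes, 0.0089 to 0.028 for probes, 0.0034 to 0.0042 for neighbours, −8.98 to 4.70 points for matching sides where a near pair was left, and 11 to 14 for the 13 of 17 lists above the mean correlation of all genes. The divided genes numbered 23 without BXD12, BXD18 or BXD32 and 24 without BXD21. Under the alternatives other than leaving out 1 strain, 30 of 148 SDs of named genes and 11 of 51 mean correlations of lists moved by more than their jackknife SE. No paired analysis was possible because there is 1 array per strain and no groups are compared. Signal over background was not analysed here, so dim probes could not be set apart.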

Other observations

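The mean log2 ratio of 11 hypothalamic peptides was 0.44 in BXD32, 0.34 in BXD11 and 0.32 in BXD1, and BXD16 was lowest. Of the 11, 9 correlated positively with the mean of the rest, but Gnrh1 and Cartpt did so negatively, at −0.47 and −0.30. Avp, vasopressin, ranged from −0.01 in BXD16 to 1.26 in BXD1, with BXD18 at 1.25, and Sst, somatostatin, from −0.03 in BXD29 to 1.57 in BXD32. The mean of 9 striatal genes was 0.32 in BXD11 and 0.27 in BXD1, and their mean correlation was 0.042, or 0.017 without BXD1. Drd1, Tac1 and Rasd2 correlated negatively with the rest of the list, and Tac1 was lowest in BXD11, at −0.32. Ppp1r1b, a signalling protein of striatal neurons, was 1.26 in BXD11, and Pde10a, a striatal phosphodiesterase, was 1.49 in BXD2, 1.38 in BXD1 and 1.34 in BXD11. Slc17a7, a vesicular glutamate transporter, was 1.43 in BXD5 and ranged down to −0.78 in BXD2, while Syt1, a synaptic vesicle calcium sensor, ranged from 0.39 in BXD24 to 1.75 in BXD32. Gad2, Slc17a6, Slc32a1 and Nefm were also highest in BXD32, but Snap25, Gad1, Syp, Stmn2 and Eno2 were lowest there. Of 15 measured neuronal genes, 10 correlated positively with the mean of the rest, but Eno2 was at −0.62 and Slc17a6 at −0.56. The only probe of Slc17a7 lies at the last place of a run, where probes varied more.

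Lists of the cerebellum, choroid plexus, immediate early genes, neurons and the MHC had mean correlations from −0.0073 to 0.018, beside 0.0025 for all genes. For the known differences between the parents it was 0.022, and −0.017 without BXD32. Without BXD5 and BXD32 the cerebellar value was 0.064, and the choroid plexus value was −0.038 with the first component removed. Zic1, of the cerebellum, was 1.28 in BXD32, and Zic2 was 0.82 in BXD11 and −0.85 in BXD32, with an SD of 0.36 that was 0.25 without BXD5 and BXD32. Ttr, the choroid plexus transthyretin, ranged from −0.85 in BXD9 to 0.21 in BXD12, and Kl, another choroid plexus gene, was 0.51 in BXD24 and no more than 0.05 elsewhere. Fos was 1.74 in BXD5, 1.14 in BXD13 and 1.01 in BXD14, and no more than 0.63 elsewhere, with an SD of 0.37, or 0.24 without BXD5 and BXD32. Jun ranged from −0.41 in BXD9 to 0.80 in BXD32. H2-Ke6 was 2.07 in BXD5 and 1.71 in BXD14, and Tap2, a peptide transporter of antigen presentation, ranged from −0.75 in BXD29 to 0.83 in BXD21. Among Y-linked genes, Usp9y was −1.70 in BXD5 and between −0.45 and 0.50 in the others, with an SD of 0.47, or 0.24 without BXD5 and BXD32, and Kdm5d ranged from −0.96 in BXD11 to 0.58 in BXD19. The mean correlation of the Y-linked genes together with Xist was 0.056, and −0.081 without BXD5.

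Itgam, an integrin of microglia, ranged from −0.63 in BXD29 to 0.76 in BXD1. Tie1, a receptor of endothelium, ranged from −1.97 in BXD24 to −0.87 in BXD13, and its only probe also lies at the last place of a run. Epb42, of the red cell membrane, was 0.80 in BXD5 and no more than 0.40 elsewhere, and C4b, complement C4, ranged from 0.19 in BXD5 to 1.05 in BXD24.

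The genes whose values were most like those of a gene singled out mostly lay on other chromosomes. Over the 16 strains Arc was most like Cdc5l (r = 0.83), Cct2 (0.81) and Taf3 (0.81). Hba-a1 was most like Cenpv (0.96), Abca8b (0.95) and Psmc4 (0.90), so Hba-x, at 0.87, was not among the 3. The value of Cenpv is a mean of probes, and its first 2 probes correlated with each other at r = −0.20 (rho = −0.26). Gh was most like Pomc (0.85), Psmc4 (0.82) and Septin6 (0.81), and Prl was most like Epha1 (0.85), Chst2 (0.83) and Utp14a (0.82). For Stx11 the genes were Cma2 (0.96), Bod1l (0.95) and Asgr2 (0.95), and for 4930522O17Rik they were Slc5a4a, Slc7a5 and Mrpl36, each at 0.88. For Glo1 they were Ndufa9 (0.92), Tbc1d1 (0.84) and Serpinb9b (0.84), and for Gja1 Mid1ip1 (0.92), Art1 (0.91) and Smad4 (0.89). These correlations were picked as the highest of all genes and share the arrays, the reference and the normalisation.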
